A study of Mus musculus with 32 samples.

Results

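Slitrk1, Slitrk6 and Slitrk5 lie in this order on mouse chromosome 14, in a stretch that holds no other protein-coding gene. The 3 genes, of 21883 protein-coding genes in the RefSeq table of GRCm38.p6, were selected by a rule that took them with 1 Mb on each side and the sequence between Slitrk1 and Slitrk6. The rule followed from earlier results of the same peak lists, because the longest P0 knockout peak lies between Slitrk1 and Slitrk6, so its length chose the stretch and is given as a description. The whole window spans 4.77 Mb and held between 146 and 237 peaks per list, of 52628 to 93523 peaks on all chromosomes.

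The series mapped trimethylation of histone H3 lysine 9 (H3K9me3) by chromatin immunoprecipitation and sequencing in male germ cells from testis. All animals carried the Mvh-Venus transgene, a fluorescent reporter driven by a germ cell gene, and the controls were heterozygous for Morc1 (Morc1 +/-, het), not wild type. The other group was homozygous for the knockout (Morc1 -/-, KO). The labels give 2 embryonic stages, E13.5 and E16.5, and 2 postnatal ones, P0 and P3. In pairs of values below, het stands before KO unless stated. Each of these 8 groups had 2 H3K9me3 samples and 1 deposited peak list that names no replicate. A list was therefore read as 1 pooled set of calls, and no value below has a replicate error or a p-value. Peak lists hold no RNA or protein level, so neither the germ cell identity nor the knockout was checked from them.

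H3K9me3 is a mark of heterochromatin, bound by HP1 proteins and known for the silencing of repeats and of gene-poor chromatin. MORC1 is a nuclear ATPase of the male germline that is needed to keep transposable elements silent. SLITRK proteins cross the cell membrane, carry leucine-rich repeats outside the cell and organise synapses in neurons, where several of them bind receptor-type tyrosine phosphatases of the partner cell. They are best known from brain, eye and inner ear rather than from testis.

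On GRCm38.p6, Slitrk1 (gene ID 76965) occupies chromosome 14 from 108909988 to 108914239 on the minus strand, 4.25 kb in all. Slitrk6 (gene ID 239250) lies 1.83 Mb further along, from 110747338 to 110755204 on the minus strand. Slitrk5 (gene ID 75409) follows after another 0.920 Mb, from 111675115 to 111683144 on the plus strand. The next protein-coding genes are Trim52, 2.77 Mb before Slitrk1, and Gpc5, which encodes a glypican and begins 3.41 Mb after Slitrk5. Thus 3 protein-coding genes stand in 8.96 Mb. The window also holds 6 long noncoding RNA genes, 17 pseudogenes, 3 small nuclear RNA genes and 1 small nucleolar RNA gene.

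The promoters are shown because no list called H3K9me3 in any of them, although peaks covered up to 57.4% of the sequence between Slitrk1 and Slitrk6. Each runs from 250 bases before to 50 bases after a transcription start, 5′ to 3′ on the strand of the gene, as RefSeq gives it for GRCm38.p6. The positions are chr14:108914190-108914489 for Slitrk1, chr14:110755100-110755399 for Slitrk6 and chr14:111675777-111676076 for Slitrk5. Capitals mark every CG dinucleotide, which reads the same on both strands.
Slitrk1: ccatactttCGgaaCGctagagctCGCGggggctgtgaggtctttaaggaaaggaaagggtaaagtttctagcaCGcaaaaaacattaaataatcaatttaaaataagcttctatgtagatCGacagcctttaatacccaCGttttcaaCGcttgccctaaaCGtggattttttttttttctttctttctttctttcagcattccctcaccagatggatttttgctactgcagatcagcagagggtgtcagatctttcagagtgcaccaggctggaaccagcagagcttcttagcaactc
Slitrk6: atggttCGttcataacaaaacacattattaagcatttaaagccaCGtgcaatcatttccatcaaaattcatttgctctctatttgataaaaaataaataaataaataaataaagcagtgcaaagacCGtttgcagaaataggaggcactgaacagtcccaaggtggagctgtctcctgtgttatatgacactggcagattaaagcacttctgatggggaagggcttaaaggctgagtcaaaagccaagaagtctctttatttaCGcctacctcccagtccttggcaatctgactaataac
Slitrk5: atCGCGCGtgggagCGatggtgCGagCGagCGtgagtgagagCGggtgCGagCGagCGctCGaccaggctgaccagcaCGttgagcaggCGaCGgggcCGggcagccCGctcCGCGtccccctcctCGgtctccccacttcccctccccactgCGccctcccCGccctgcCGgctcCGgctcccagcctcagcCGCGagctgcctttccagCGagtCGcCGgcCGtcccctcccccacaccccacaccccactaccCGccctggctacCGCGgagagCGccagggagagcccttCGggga

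These windows differ widely in base composition. The Slitrk5 window holds 35 CG dinucleotides at a GC content of 74.3%, more CG than 93.0% of the 32851 RefSeq promoter windows of the same length. The Slitrk1 window holds 9 at 42.3% GC and the Slitrk6 window 4 at 38.3% GC, against a median of 7 CG and 52.7% GC over all windows. At least 1 CG was present in 94.6% of all windows, so its presence alone sets none of the 3 apart. Between 4.29% (E13.5 het) and 6.41% (P0 KO) of all promoter windows touched a peak, so windows with no peak were the common case.

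The nearest peak was close to Slitrk1 in every list, close to Slitrk6 in the embryo and usually far from Slitrk5. For Slitrk1 the distance from the gene body was 990 versus 1261 bp (het versus KO) at E13.5, 305 versus 608 bp at E16.5, 1537 versus 1521 bp at P0 and 831 versus 904 bp at P3. In all 8 lists this was a peak of 2.93 to 6.43 kb just downstream of the 3′ end of the gene. It ended between position 108908450 (P0 het) and 108909682 (E16.5 het) of chromosome 14, and no list called a base pair inside the gene body. On the promoter side of Slitrk1 the nearest peak lay between 42.5 kb (P0 het) and 104.9 kb (E13.5 het) away.

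Slitrk6, known for its role in the inner ear and the retina, was the 1 member with long calls inside the gene. At E16.5 a peak of 7.02 kb in het covered 5.25 kb of the 7.87 kb gene body, and a peak of 5.48 kb in KO covered 3.62 kb. Both entered from the 3′ end and stopped 2514 bp (het) and 4144 bp (KO) short of the promoter window. At E13.5 a het peak covered 0.632 kb of the gene, and the nearest KO peak lay 275 bp away. After birth no call remained in the gene body, and the nearest peak lay 10.3 versus 6.53 kb away at P0 and 9.01 versus 9.57 kb away at P3. Several of these values depended on short peaks. Among peaks of at least 3 kb the distance was 17.5 versus 19.5 kb at E13.5, 13.6 kb in P0 KO and 31.9 versus 16.9 kb at P3, while both E16.5 lists still overlapped the gene.

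Slitrk5, whose loss in mice gives repetitive grooming, had the least covered length within 100 kb. The nearest peak lay 96.1 kb away at E13.5 in het, 77.8 versus 78.1 kb at E16.5, 20.5 versus 21.0 kb at P0 and 20.8 versus 11.5 kb at P3. The E13.5 KO list was the exception, with 2002 bp called inside the gene. That call consisted of 2 peaks of 1001 bp, the most common length in the lists, which hold 1 shorter peak in all. The nearer of the 2 lay 758 bp from the promoter window, where the nearest E13.5 het peak was 103207 bp away. No other list called a base pair in the gene. Among peaks of at least 3 kb the distances were 287 versus 172 kb at E13.5, 173 kb in the other 3 KO lists and 174 kb in P3 het. Only E16.5 het and P0 het kept their nearest peak.

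**Figure D1:**
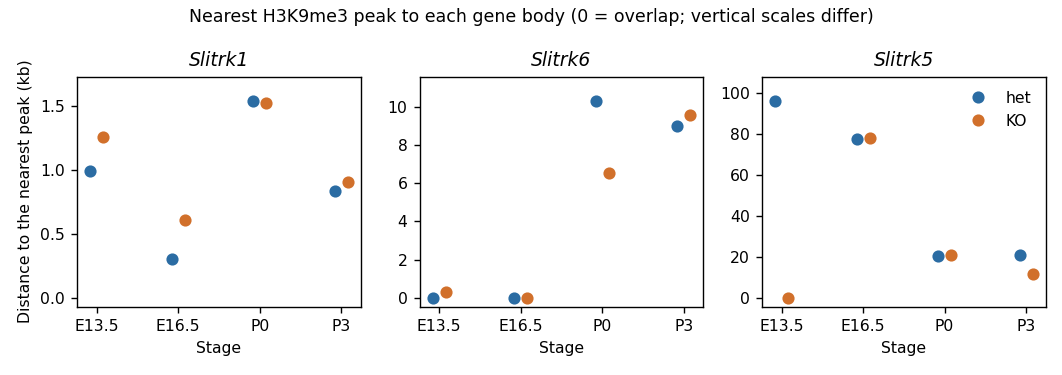
Distance in kb from each gene body to the nearest H3K9me3 peak, by stage, with 1 point per list (het blue, KO orange) and a vertical scale of its own for each gene. Slitrk1 points all lie under 1.54 kb, Slitrk6 points rise from 0 in both E16.5 lists to between 6.53 and 10.3 kb after birth, and Slitrk5 points lie above 11.5 kb except for the overlap in E13.5 KO.

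The marked sequence lay between the genes, most of it between Slitrk1 and Slitrk6. In that interval of 1833 kb, peaks covered 686 versus 702 kb at E13.5 and 1052 versus 1051 kb at E16.5. After birth the values were 706 versus 746 kb at P0 and 549 versus 564 kb at P3. As a share of the interval this was 37.4% versus 38.3%, 57.4% versus 57.3%, 38.5% versus 40.7% and 29.9% versus 30.8%. The interval between Slitrk6 and Slitrk5 was covered to 17.9% versus 20.5% at E13.5, 35.6% versus 35.2% at E16.5, 27.5% versus 29.1% at P0 and 19.3% versus 20.9% at P3. The outer flanks were sparser: in the 1 Mb before Slitrk1 the share ranged from 3.35% (E13.5 het) to 14.1% (E16.5 het), and in the 1 Mb after Slitrk5 from 7.47% (E13.5 het) to 18.0% (E16.5 het). The 4 stretches kept this order of shares in every list.

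**Figure D2:**
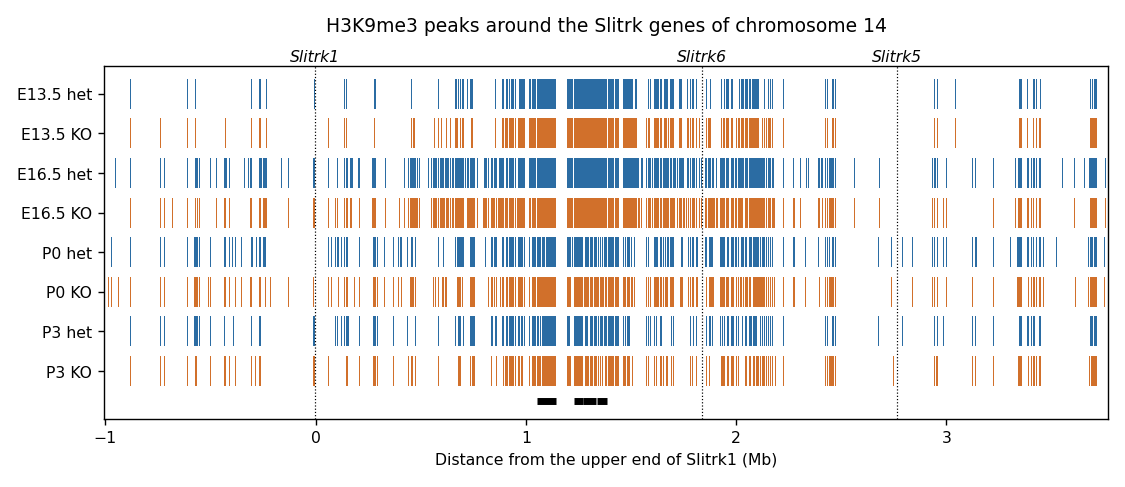
Peaks of the 8 lists (het blue, KO orange) along the window, in Mb from the upper end of Slitrk1, with the genes as dotted lines and 4 long domains as black bars below. Calls are dense from about the middle of the Slitrk1 to Slitrk6 interval to beyond Slitrk6, fill most at E16.5, and are sparse on both sides of Slitrk5.

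Within the Slitrk1 to Slitrk6 interval the calls grew denser away from Slitrk1 and were densest past the middle. At E13.5 in het, the 100 kb next to Slitrk1 held 0 kb of peaks, while the stretch from 1.2 to 1.3 Mb beyond Slitrk1 held 92.4 kb and the next 100 kb held 90.0 kb. In P3 KO the same 3 stretches held 6.06, 78.0 and 63.6 kb. The interval contains 1 long noncoding RNA gene, Gm30216, of 181 kb. Peaks covered 15.1 versus 24.8 kb of Gm30216 at E13.5, 83.1 versus 90.3 kb at E16.5, 25.7 versus 35.7 kb at P0 and 11.8 versus 19.5 kb at P3. The KO value was higher at 4 of 4 stages, in a gene chosen after its values were seen. Over all chromosomes the KO to het ratios at these stages were 1.14, 0.923, 1.04 and 1.09. Gm25901, a small nucleolar RNA gene of 130 bp, and the pseudogene Gm17932 of 795 bp were fully covered in all 8 lists. The same held for the pseudogenes Gm4476 and Gm20127 in the window outside this interval.

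Through development the covered length of the interval rose from E13.5 to E16.5 and fell at both later steps, in both genotypes. E16.5 lists covered 1.53-fold (het) and 1.498-fold (KO) the length of their E13.5 counterparts. At P0 it was 0.672 of the E16.5 length in het and 0.710 in KO, and at P3 it was 0.777 and 0.756 of the P0 length. Over all chromosomes the covered length also rose from E13.5 to E16.5, 1.84-fold in het and 1.49-fold in KO. It also fell from P0 to P3, to 0.884 and 0.925 of the P0 length. Only the step to P0 went the other way, with ratios of 1.06 in het and 1.20 in KO. The interval thus lost length at birth while the lists as wholes gained it, in both genotypes; read depth is not given in the sources used here, so the lists' totals may differ for that reason, which was not tested.

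**Figure D3:**
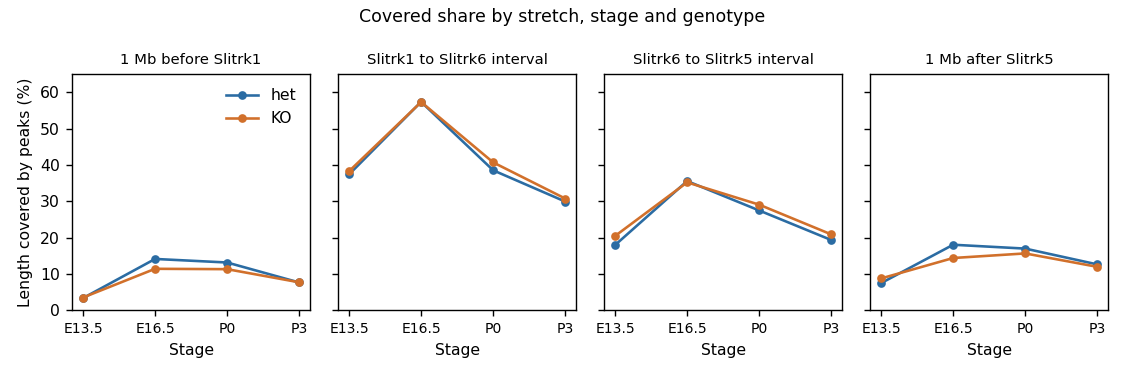
Share of each stretch covered by peaks (in %) at the 4 stages, with het in blue and KO in orange and 1 value per point. The Slitrk1 to Slitrk6 interval is highest throughout, with 57.4% versus 57.3% (het versus KO) at E16.5 and 29.9% versus 30.8% at P3.

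The interval is 1 of 281 spaces of at least 1 Mb between neighbouring protein-coding genes of the autosomes and X. Such spaces can hold other genes, as the interval does. Some of them had no call in any list and entered the medians of covered share as 0%. A space without calls has no ratio, and the ratios below were taken over 273 spaces. By covered share at E16.5 the interval ranked 6 from the top in het and 4 in KO, against medians of 17.6% and 15.8%. At P3 it ranked 27 and 32. Its P0 to E16.5 ratio was among the lowest, at rank 266 of 273 spaces in het and 269 of 273 in KO, where the medians were 1.07 and 1.181. Spaces that were at least 40% covered at E16.5 had lower ratios in general, with medians of 0.810 over 36 spaces in het and 0.846 over 30 in KO, against 1.12 and 1.21 for the less covered spaces. Among these heavily covered spaces the interval ranked 32 of 36 and 28 of 30. The E16.5 length enters both the share and the ratio, so the 2 measures are not independent, and no test was made of the difference.

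**Figure D4:**
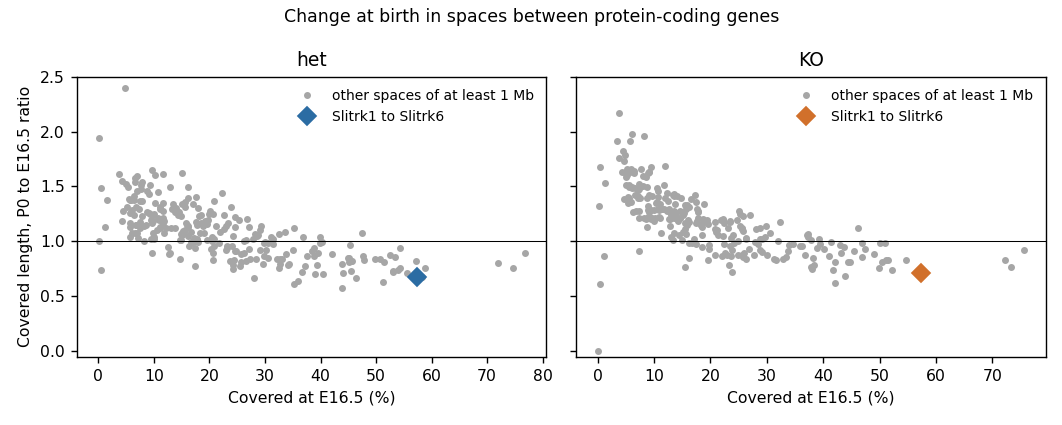
Each point is 1 space of at least 1 Mb between protein-coding genes, with the share covered at E16.5 (in %) on the horizontal axis and the P0 to E16.5 ratio of covered length on the vertical axis, for het and KO. The Slitrk1 to Slitrk6 interval (diamond) lies at 0.672 in het and 0.710 in KO, near the lower edge of the heavily covered spaces, most of which lie under the line at 1.

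At the level of 1 kb bins, counted as called when at least 50% covered, the interval had 985 bins called in both genotypes at E16.5. Of these, 62.2% were called in both at P0, 23.9% in neither, 9.85% in KO alone and 4.06% in het alone. The same shares over all chromosomes were 78.0%, 10.9%, 6.49% and 4.54%. Bins called only in embryonic lists made up 28.6% of all bins ever called in the interval, and bins called only after birth 4.11%, against 13.1% and 30.9% over all chromosomes. Bins called only after birth were thus a small share of the called bins in the interval. Peaks already covered 57.4% of the interval in E16.5 het, which left less sequence free to be gained. The share is therefore not a rate of new marking, which was not tested. Of the 1167 called bins of the interval, 416, or 35.6%, were called in all 8 lists, against 19.6% over all chromosomes. No spaces of like coverage were compared for this share.

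The core of the interval consisted of 4 very long domains that all embryonic lists called as single peaks. They were taken as peaks of at least 40 kb in each of the 4 embryonic lists, a definition made after the lists had been seen. Domain 1 extends from 109964873 to 110055542 on chromosome 14 (90.7 kb), domain 2 from 110141996 to 110184131 (42.1 kb), domain 3 from 110185581 to 110246956 (61.4 kb) and domain 4 from 110253166 to 110300734 (47.6 kb). They lie 1.05 to 1.34 Mb above Slitrk1 and 0.447 to 0.692 Mb below Slitrk6, and no gene of the RefSeq table falls inside them. Their borders were nearly fixed: over the 4 embryonic lists the starts differed by 83 to 538 bp and the ends by 179 to 749 bp. Together the domains span 242 kb, and the sequence called inside them made up between 22.8% (E16.5 KO) and 35.2% (P3 KO) of all that was called in the interval.

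The definition requires long single peaks in the embryo, so the domains could show no rise from E13.5 to E16.5. They were covered to 99.4% in het and 99.8% in KO at E13.5 and to 99.4% and 99.1% at E16.5. The rest of the interval went from 28.0% and 28.9% at E13.5 to 51.0% in both genotypes at E16.5, then to 31.9% and 33.0% at P0 and to 22.7% and 23.0% at P3. Domains and surroundings both lost calls after birth, and the rest of the interval ended below its E13.5 share.

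Having been chosen as unbroken in the embryo, the domains could only stay whole or lose calls after birth, and most of them split. Pooled over their summed length, they were covered to 82.1% in het and 91.3% in KO at P0, and to 77.2% and 82.1% at P3. For 87 domains defined in the same way on all chromosomes, the medians per domain were 90.6% versus 91.8% at P0. At P3 these medians were 80.9% versus 85.1%. The 87 include these 4 domains, and a median per domain is a different measure from a pooled share. Of those 87, 14.9% in het and 20.7% in KO counted as 1 peak at P0. The same count gave 62.1% in het and 83.9% in KO at E13.5, and 65.5% in both at E16.5. It includes shorter peaks that touch a domain, so not all of the 87 counted as 1 peak before birth. A single peak was thus less common at P0 than in the embryo. Domain 3 was most interrupted, with 6 peaks in het and 5 in KO at P0 and 7 in each at P3. Its coverage was 68.7% in het and 80.6% in KO at P0, and 56.0% and 73.1% at P3. Domain 2 was covered to 93.7% and 94.4% at P0 and to 81.6% and 93.0% at P3, and domain 4 to 71.6% and 86.8% at P0 and to 76.8% and 65.4% at P3. Peaks of at least 40 kb became scarcer after birth on all chromosomes too, from between 134 and 195 per embryonic list to 64 and 58 at P0 and 24 and 27 at P3 (het and KO).

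Domain 1 holds the P0 knockout peak that drew attention to the stretch. Single peaks of 90.4 kb (E13.5 het), 90.6 kb (E13.5 KO), 89.97 kb (E16.5 het), 90.2 kb (E16.5 KO) and 90.2 kb (P0 KO) spanned it, whereas P0 het had 4 peaks, the longest of 27.9 kb. The P0 KO peak was the longest of its list, and the P0 het peak ranked 247 in its own. In covered length the contrast was small, at 82.9 kb in het and 90.2 kb in KO, because the 3 gaps in het summed to 7.52 kb and the widest was 3.79 kb. When peaks within 3 kb of each other were joined, the longest peak of the interval became 65.2 kb in P0 het and 125.8 kb in P0 KO. Longest peaks at P0 also differed elsewhere in the window, with 22.0 versus 31.0 kb between Slitrk6 and Slitrk5, 16.4 versus 33.3 kb in the 1 Mb after Slitrk5, and 12.1 kb in both genotypes before Slitrk1. At P3 the values in domain 1 were close, with longest peaks of 45.9 kb in het and 46.1 kb in KO and coverage of 89.8% and 91.9%.

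Over the 4 domains the KO share was higher in 4 of 4 at P0 and in 3 of 4 at P3, with domain 4 the exception. Among the 87 domains of all chromosomes the KO share was higher in 64.4% at P0 and in 72.4% at P3. A single KO peak against several het peaks at P0, as in domain 1, occurred in 9.20% of the 87, and the opposite in 3.45%. These counts include shorter peaks that touch a domain, so they are not all splits after birth. The domains were drawn to notice by the P0 peak itself, so the P0 counts describe and support nothing.

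**Figure D5:**
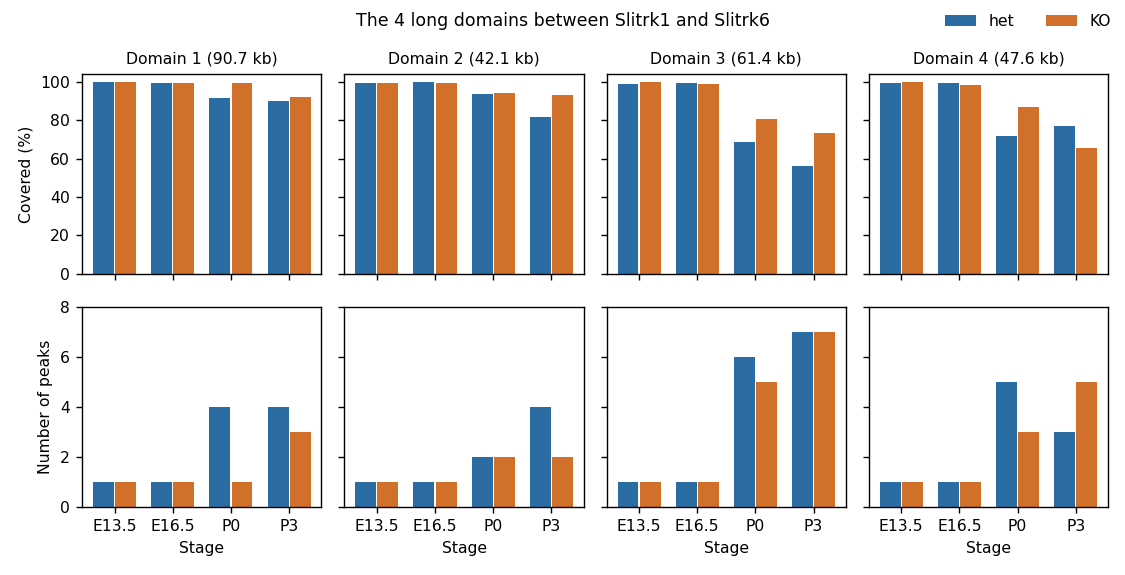
Share covered by peaks (upper row, in %) and number of peaks (lower row) in the 4 long domains by stage, het in blue and KO in orange, 1 value per bar. All domains are a single, nearly complete peak in the embryo, and after birth they fall into as many as 7 peaks, with domain 1 in P0 KO still in 1.

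The design sets KO against het at matched stages. In the Slitrk1 to Slitrk6 interval the KO to het ratio of covered length at the 4 stages, from E13.5 to P3, was 1.02, 0.999, 1.06 and 1.03. In the whole window it was 1.06, 0.959, 1.02 and 1.03. Those ratios rest on 959.6 versus 1015 kb at E13.5, 1706 versus 1637 kb at E16.5, 1260.5 versus 1283 kb at P0 and 929 versus 953 kb at P3. Over all chromosomes the ratios were 1.14, 0.923, 1.04 and 1.09. The interval ratio was nearer to 1 than that of all chromosomes at E13.5, E16.5 and P3, and slightly farther from 1 at P0. From E13.5 to P3 the ratio was 1.05, 0.808, 0.861 and 1.01 in the 1 Mb before Slitrk1, and 1.17, 0.798, 0.922 and 0.947 in the 1 Mb after Slitrk5. With 1 list per group, none of these ratios can be set against a replicate spread.

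The genotypes called much the same sequence in the interval. The Jaccard index, the base pairs in both lists divided by those in either, was 0.834, 0.886, 0.783 and 0.762 from E13.5 to P3 in the interval, against 0.713, 0.798, 0.699 and 0.666 over all chromosomes. Of the 1 kb bins called in either genotype, 59 of 761 were called in het alone at E13.5 (7.75%, against 8.73% on all chromosomes) and 76 in KO alone (9.99%, against 20.1%). At E16.5 it was 60 of 1112 in het alone (5.40%, against 13.7%) and 67 in KO alone (6.03%, against 6.56%). The P0 counts were 68 of 822 (8.27%, against 13.2%) and 105 (12.8%, against 16.9%), and those of P3 were 66 of 637 (10.4%, against 13.0%) and 87 (13.7%, against 20.4%). All 8 shares were below those of all chromosomes, and those for het at E13.5 and KO at E16.5 were close to them. Both measures depend on peak length and on how densely a stretch is covered. In E13.5 het the median peak was 3536 bp in the interval and 1853 bp in the whole list. Spaces covered to a like degree were not compared.

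Bins called in 1 genotype alone were followed from P0 to P3. In the whole window 170 bins were het-only at P0, and 55 of them were het-only again at P3. Another 180 were KO-only at P0, and 33 of them were KO-only again. Over all chromosomes 19468 of 51505 het-only bins and 16139 of 66213 KO-only bins recurred. The shares below take all bins ever called as their base, so they are not rates of recurrence. In the whole window 55 of 2004 called bins were het-only at both stages (2.74%, against 3.76% of called bins on all chromosomes) and 33 were KO-only at both (1.65%, against 3.12%). Another 6 bins passed from het-only to KO-only (0.299%, against 0.475%) and 9 the other way (0.449%, against 0.460%), shares near or below those of all chromosomes.

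Peaks with no counterpart in the other genotype (no base pair in common) were mostly short. In the whole window they numbered 20 of 156 in het and 19 of 146 in KO at E13.5, where 11.3% and 21.4% of all peaks had none. At E16.5 there were 39 of 228 and 22 of 212 (all peaks 13.4% and 6.94%), at P0 32 of 237 and 27 of 223 (12.0% and 19.4%), and at P3 28 of 198 and 34 of 197 (13.9% and 20.7%). The window shares were 12.8% and 13.0%, 17.1% and 10.4%, 13.502% and 12.1%, and 14.1% and 17.3%. Median lengths of such peaks were between 1001 and 1346 bp, against 3.48 to 5.04 kb for peaks with a counterpart, and only 14 of them over the 8 lists reached 3 kb.

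The longest unmatched peak of each list lay away from the gene bodies. In P0 het it spanned 6.04 kb (108665420 to 108671463), on the Trim52 side of Slitrk1, a place where E16.5 het had 4.42 kb called, E16.5 KO 3.71 kb and both P3 lists none. In P0 KO it spanned 4.15 kb (109792360 to 109796512), 0.878 Mb above Slitrk1, where E16.5 het had 4.15 kb and E16.5 KO 3.15 kb. In P3 het it spanned 5.33 kb (108518789 to 108524117), where P0 het had 4.58 kb and P0 KO 1.58 kb. In P3 KO it spanned 3.45 kb (112524382 to 112527832), with 2.40 kb called in P0 het and 3.25 kb in P0 KO. The embryonic ones measured 2.48 kb (E13.5 het), 2.59 kb (E13.5 KO), 3.98 kb (E16.5 het) and 3.17 kb (E16.5 KO). Apart from the E16.5 het peak, which overlapped 0.149 kb of P0 KO calls and nothing else, each of the 8 was called over more than 2 kb in at least 1 list of another stage.

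The remaining Slitrk genes gave a comparison for the gene windows. With 1 Mb on each side of Slitrk6, peaks covered 38.2% versus 39.8% at E13.5, 53.4% versus 53.1% at E16.5, 39.4% versus 41.8% at P0 and 31.2% versus 32.8% at P3. Around Slitrk1 the same pairs, from E13.5 to P3, were 9.88% versus 10.2%, 28.7% versus 27.4%, 19.8% versus 18.9% and 12.8% versus 12.2%. Around Slitrk5 they were 13.1% versus 15.1%, 27.5% versus 25.7%, 21.8% versus 22.1% and 15.6% versus 15.97%. At this width Slitrk1 had a lower share than Slitrk5 in all lists except both of E16.5. The Slitrk6 window shares sequence with the Slitrk1 window and with the Slitrk5 window. Slitrk3 on chromosome 3 had 9.16% versus 11.2%, 28.2% versus 24.7%, 18.9% versus 18.1% and 13.47% versus 14.1%. The X-linked genes were lower in every list, with 3.77% versus 4.73%, 13.4% versus 13.6%, 15.0% versus 13.45% and 8.77% versus 8.07% for Slitrk2. Slitrk4 had 4.19% versus 4.97%, 12.4% versus 13.8%, 14.6% versus 11.8% and 8.84% versus 7.93%. The cells were male, and the shares were not adjusted for the copy number of the X chromosome. The E13.5 KO list was again the only one with a call in the Slitrk2 gene body (1.05 kb), and Slitrk3 and Slitrk4 had none in any list.

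Protein-coding genes were ranked by how close their covered share with 1 Mb on each side came to that of a member over the 8 lists, by the mean absolute difference and leaving out windows that overlap the member's. Closest to Slitrk1 were Prr32 on the X chromosome (1.08 percentage points), Slitrk3 (1.16) and the olfactory receptor gene Olfr1129 (1.48). Closest to Slitrk5 were Lingo2 (0.789), which encodes another leucine-rich repeat protein of neurons, the protocadherin gene Pcdh17 (1.13) and 4930415L06Rik (1.38). Slitrk6 had no match as near: Wdr49 differed by 2.93 points, and the neighbouring olfactory receptor genes Olfr128 and Olfr127 by 2.97 and 2.99.

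Other synaptic adhesion genes, among them phosphatases that SLITRK proteins bind and further leucine-rich repeat proteins, were examined with 100 kb on each side. Of 27 listed genes, 22 had at least 10 kb covered in 1 genotype at both P0 and P3. Flrt3, which encodes a leucine-rich repeat adhesion protein, was at least 1.5 times as covered in het as in KO at both stages, which makes 1 of 22, against 1.19% of 14195 protein-coding genes measured. Its window held 11.0 versus 7.06 kb at P0 and 11.3 versus 5.59 kb at P3. Flrt3 reached the 10 kb minimum through het alone, the genotype in which it is higher, so the count is a description only. None of the 22 was at least 1.5 times as covered in KO at both stages, against 5.09% of all measured genes. The median KO to het ratio of the 22 was 1.14 at P0 and 1.15 at P3, and that of all measured genes was 1.12 at both.

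In the same 100 kb windows the order of the members was the same in all 8 lists, with Slitrk6 highest and Slitrk5 lowest. Slitrk6 had 55.2 versus 64.3 kb at E13.5, 130.05 versus 131.1 kb at E16.5, 66.6 versus 71.6 kb at P0 and 33.97 versus 41.5 kb at P3. Slitrk1 had 3.31 versus 5.51 kb at E13.5, 15.5 versus 13.6 kb at E16.5, 15.6 versus 9.89 kb at P0 and 9.74 versus 12.6 kb at P3, so the genotype with more changed between P0 and P3. Slitrk5 had the least, with 1.00 versus 3.33 kb at E13.5, 5.90 versus 4.21 kb at E16.5, 10.5 versus 5.35 kb at P0 and 7.61 versus 6.06 kb at P3.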

How the data were processed

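The labels list 32 samples in 16 groups of 2, of which 16 samples used an H3K9me3 antibody and 16 a histone H3 antibody; the H3 samples were not analysed here. The data were 8 peak lists deposited by the authors, with 3 columns (chromosome, start and end in base pairs, read as BED) and no height, score or p-value. The build is mm10 (GRCm38), and bcl2fastq 2.20, cutadapt 1.18, Bowtie2 2.3.4.1, deepTools 3.5.0 and HOMER 4.10 were used, per the submitters' processing notes. Calling settings, control, pooling of replicates and depth are not given in the sources used here, and peak number and length depend on all of them. Only peaks on the autosomes and sex chromosomes entered. Covered length, distances, overlaps and joins were computed in Python 3.11.15 with numpy 2.4.6 and pandas 2.3.3, and the code was checked on 200 sets of simulated intervals. Coordinates are printed 1-based. Gene positions and promoter sequences came from RefSeq tables of GRCm38.p6; all 3 members matched by symbol. Members and gene lists were chosen with earlier results of these data known. The named genes are the 3 members, the other Slitrk genes, the flanking protein-coding genes and 3 nearest matches per member. Named as well are called synaptic adhesion genes, and the longest and longest unmatched peaks. Gm30216, Gm25901, Gm17932, Gm4476, Gm20127 and the 4 domains were chosen after their values were seen.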

Additional observations from a re-analysis of the deposited data

Results flagged for a closer look

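The KO to het ratio of covered length lay on opposite sides of 1 at different stages, and the difference between stages was not tested, since each group has 1 list. In the Slitrk1 to Slitrk6 interval the ratio from E13.5 to P3 was 1.02, 0.999, 1.06 and 1.03. The E16.5 value rests on 1051.7 kb in het against 1050.9 kb in KO. It turned above 1 under 3 of 4 other ways of counting. The ratio was 1.005 with the longer 50% of each list and with joined peaks, and 1.007 in 1 kb bins. The remaining way, equal numbers of the longest peaks, removed no peak from the interval and so could not move the ratio. In the whole window the 4 ratios in the same order were 1.06, 0.959, 1.02 and 1.03.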

How the results depend on the processing

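No paired analysis was possible because no list says which replicate its peaks come from, and leaving out a replicate was not possible for the same reason. The KO to het ratios of the interval were recomputed with the longer 50% of each list, with the longest peaks in equal numbers, with peaks within 3 kb joined and as 1 kb bins. They stayed between 1.02 and 1.04 at E13.5, 1.05 and 1.06 at P0, and 1.01 and 1.05 at P3. At E16.5 the ratio crossed 1, to 1.005 with the longer peaks and with joined peaks and 1.007 in bins. Equal numbers left the KO to het ratios of the interval and the whole window unchanged at every stage. Peaks of the same length were dropped by chromosome order and none of those dropped lay here, so this setting was no check of the ratios. In the whole window, also tried with flanks of 0.5 and 2 Mb, the direction held at every stage, and the E16.5 ratio ranged from 0.936 to 0.973. The stage ratios kept their direction in 24 of 24 recalculations. Of these, equal numbers left the ratio unchanged from P0 to P3 in both genotypes and from E16.5 to P0 in het. Requiring 50% of a peak to be overlapped raised the number of unmatched peaks of the whole window in every list. At E13.5 it went from 20 to 29 in het and from 19 to 30 in KO. The E16.5 counts went from 39 to 53 and from 22 to 28. Those of P0 went from 32 to 44 and from 27 to 37, and those of P3 from 28 to 42 and from 34 to 47. With longer peaks only, distances changed in 1 of 16 recalculations for Slitrk1, 10 of 16 for Slitrk6 and 11 of 16 for Slitrk5, and the Slitrk1 change was from 1.26 to 136 kb in E13.5 KO, whose peak is 2.93 kb long. Joining and the longer-peak check of the domains, which left 79.2% in het and 90.8% in KO at P0, were chosen after seeing the data.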
